A study of Drosophila melanogaster with 8 samples.

Results

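Glutathione transferases join the tripeptide glutathione to electrophilic molecules such as insecticides, plant toxins and the products of lipid peroxidation. Insects carry a large delta class and a large epsilon class, each mostly in 1 tight gene cluster built by repeated duplication, beside the older sigma, theta and zeta classes, which also occur in mammals. In flies, some delta genes, GstD1 above all, are induced by oxidative stress through the transcription factor cnc when its inhibitor Keap1 releases it, and many transferases are known from gut, fat body, muscle and head.

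The genes described here are all those with a symbol of Gst, a class letter D, E, S, T or Z, and a number. The rule took 32 of the 14701 gene IDs in the table: 11 delta, 14 epsilon, 1 sigma, 4 theta and 2 zeta genes, and it left out the omega class. RNA sequencing of pooled heads and thoraxes compared mated females of the laboratory strains Dahomey and Oregon R of Drosophila melanogaster, aged 10 days and kept at 25 °C. There were 4 libraries of Dahomey and 4 of Oregon R, with 60 flies in each. The labels name no transgene, mutation or treatment in either strain, and they do not say whether replicate libraries were separate cultures, so the p-values reflect the spread among these samples, which may be technical.

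The values were a finished comparison by the authors, listing for each entry a mean normalized read count over the libraries, the log2 difference between the strains (here called log2 fold change), an SE, or standard error, for it, and an adjusted p. Values of single libraries were not used here, so whether the strains' libraries overlap is not shown and library depths are unknown; 90000000 reads per sample were stated by the submitters. Positive fold changes are taken to mean higher in Dahomey, because the table's name puts that strain first, and every direction below would turn if the table was coded the other way. Levels per strain were computed from the mean and the fold change, and levels of different genes are compared only per kilobase (kb) of exon. In whole tissue, fewer cells of a type and less RNA per cell cannot be told apart.

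Markers of the labelled tissues were present, and so were markers of gut. In the authors' deposited table the photoreceptor opsin gene ninaE had a mean of 1452797 normalized counts, the muscle myosin gene Mhc 252776 and the neuronal gene nSyb 27423. Of the 8 neuron and photoreceptor markers, trpl passed as higher in Dahomey at a log2 fold change of 0.69, Syt1 and trp passed as lower at -0.37 and -0.32, and 5 did not pass, in the authors' deposited table. Of the 4 fat body markers, the lipoprotein gene apolpp and the yolk protein gene Yp1 passed as higher at 0.39 and 0.52, Fbp1 did not pass, and the storage protein gene Lsp2 had -1.91 with no p, in the authors' deposited table. The 8 midgut markers had means from 365 to 311764 in the authors' deposited table, and their log2 fold changes ran from -8.97 for the lysozyme gene LysB to 4.81 for the maltase gene Mal-A4; 1 passed as higher in Dahomey, 3 passed as lower, 1 did not pass and 3 had no p. All 3 matched ovary markers, at means from 844 to 2952 and with SE from 0.36 to 0.38, lacked a p. The 4 testis markers had means from 1.97 to 295. Of the 3 matched Malpighian tubule markers, 2 did not pass, and Uro, at a mean of 700, had -0.48 ± 0.37 with no p. Many glutathione transferases are also expressed in gut and fat body. The part that gut, fat body, tubule or ovary tissue had in the differences below, or in the missing p-values, was not tested.

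Most of the glutathione transferase genes with a p differed between the strains, in both directions. Of the 30 genes with a p, 7 were higher in Dahomey, 11 were lower and 12 did not pass at the authors' DESeq2 adjusted p under 0.05. That is 60% of them, against 29.4% of all 13395 entries with a p; higher entries made up 14.7% and lower entries 14.7% of the whole table. Genes with more reads passed more often, and with a mean of at least 100 required, 6 of 27 transferases were higher and 11 lower, 63.0% in all, against 18.2% of such entries higher and 18.6% lower, 36.8% in all. Of the 18 genes that passed, 7, or 38.9%, differed by at least 2-fold, against 17.6% of all entries that passed, and their median absolute log2 fold change was 0.73, against 0.42. The median log2 fold change of the 30 genes was -0.17, and that of all entries with a p was -0.01. With every SE multiplied by 1.5 and p recomputed, 2 genes were higher in Dahomey and 8 lower.

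**Figure D1:**
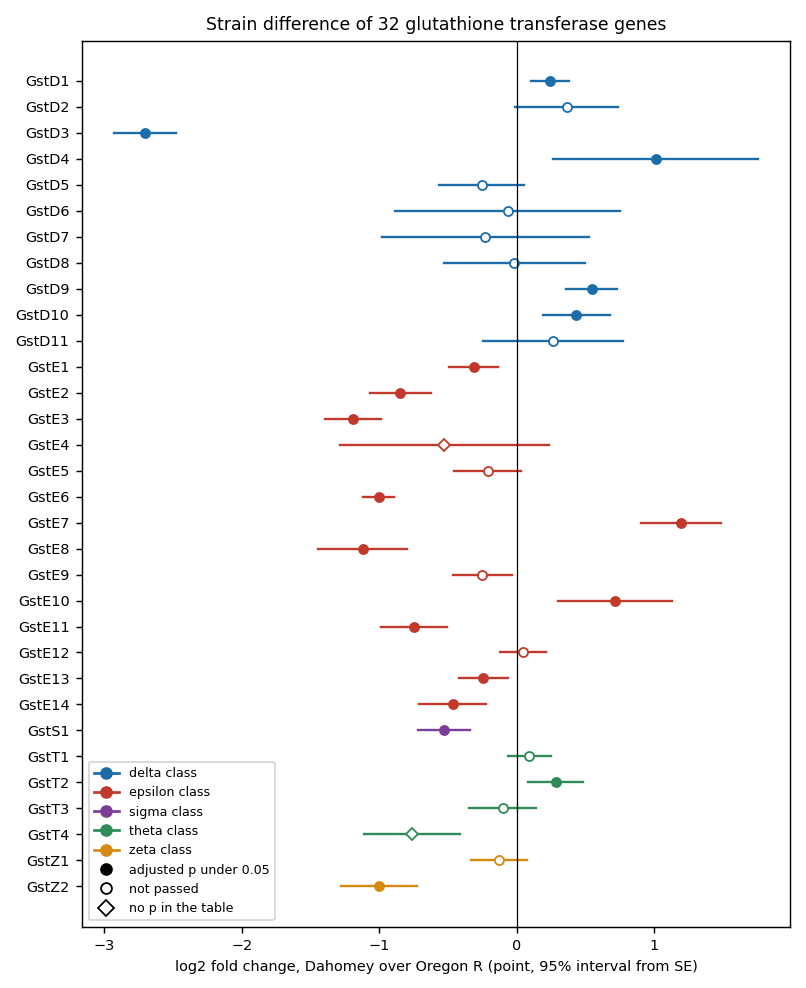
Log2 fold change of Dahomey over Oregon R for each of the 32 genes, by class, with the 95% interval computed from the authors' SE; filled circles passed an adjusted p under 0.05, open circles did not, and diamonds had no p. Of the delta genes that passed, GstD3 at -2.70 lies left of 0 and the other 4 right of it; of the epsilon genes that passed, 8 lie left of 0, and GstE7 at 1.19 and GstE10 at 0.71 lie right of it.

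GstD1, GstE12 and GstT4 held the 3 highest levels per length in both strains. GstD1 (FBgn0001149), which breaks down the insecticide DDT and conjugates a toxic product of lipid peroxidation, was the highest of the 32 genes per length, with a mean of 39651 normalized counts per kb of exon, or 29.0% of the sum over the 32 genes. GstE12 followed at 23387 and the theta gene GstT4 at 21510 normalized counts per kb. These 3 genes made up 61.9% of the summed level, and with GstE9, GstS1, GstE6 and GstE3 the share was 80.2%. At the other end, GstD4, GstD7 and GstD6 stood at 41.8, 26.6 and 12.8 normalized counts per kb. The levels thus spanned more than 3 powers of 10, a range far beyond any strain difference of a single gene.

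**Figure D2:**
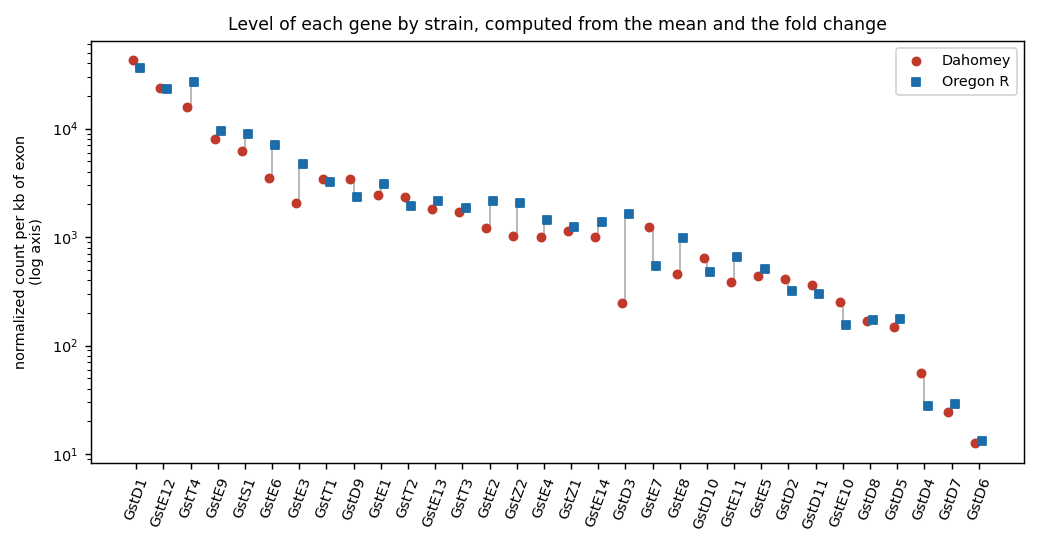
Level of each of the 32 genes in Dahomey (circles) and Oregon R (squares), in normalized counts per kb of exon on a log axis, computed from the mean and the fold change and ordered by the mean level. The order from GstD1 down to GstD6 is broad, and the widest gap between the strains is at GstD3, with 248 normalized counts per kb in Dahomey and 1619 in Oregon R.

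In the delta class, 4 genes were higher in Dahomey and 1, GstD3, was far lower. That is 45.5% of the 11 delta genes, against 29.4% of all entries with a p. GstD1 was modestly higher: the authors' deposited table gave it a mean of 33426 normalized counts and a log2 difference of 0.24 ± 0.071 (± SE throughout, adjusted p = 0.00324), which corresponds to 36217 normalized counts in Dahomey and 30635 in Oregon R. GstD9 had a log2 fold change of 0.54 ± 0.093 (adjusted p = 6.86e-08) and GstD10 one of 0.43 ± 0.12 (adjusted p = 0.00268) in the authors' deposited table. GstD4 had 1.01 ± 0.38 (adjusted p = 0.0292) there, from a mean of only 30.3 normalized counts, and did not pass at an adjusted p under 0.01. The 4 higher genes thus range from the most abundant member of the family to one of the rarest.

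GstD3 (FBgn0010039), which encodes a delta protein that lacks part of the N-terminal stretch other delta enzymes have, held the largest difference of the family. The authors' deposited table listed a mean of 697 normalized counts and a log2 fold change of -2.70 ± 0.11 (adjusted p = 1.86e-122). The level was 185 normalized counts in Dahomey and 1208 in Oregon R, a 6.52-fold difference, with a 95% interval of the log2 fold change from -2.93 to -2.48. Its SE was 0.915 times the median SE of the 500 entries with the nearest means, so its error was about that of other genes of this abundance.

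The other 6 delta genes did not pass, and most of them were weakly expressed. GstD2 had a log2 fold change of 0.36 with a 95% interval from -0.01 to 0.73, and GstD11 had 0.26 with an interval from -0.25 to 0.77, computed from the authors' deposited table. GstD5 and GstD8, both with means between 136 and 137 normalized counts in the authors' deposited table, had log2 fold changes of -0.26 and -0.02. For GstD6 and GstD7, with means of 9.99 and 20.1 normalized counts in the authors' deposited table, the 95% intervals ran from -0.89 to 0.75 and from -0.98 to 0.52 on the log2 scale. Those intervals are wide, and differences of either sign within them are not excluded. The SE fell again toward the lowest means, a shape that fold changes drawn toward 0 have, so those of such rare genes may be understated.

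All 11 delta genes lie in 1 cluster on arm 3R, where GstD3 was the exception among the genes that passed. In the gene order of RefSeq release 6, GstD10, GstD9 and GstD1 stand side by side on the minus strand, and all were higher in Dahomey. Next to them, on the plus strand, come GstD2, which did not pass, GstD3, which was lower, and GstD4, which was higher in Dahomey. GstD5 to GstD8 and GstD11, which did not pass, complete the cluster. The strong difference at GstD3 thus lay between GstD2 and GstD4, whose fold changes were positive. Of the 5 genes on each side of the cluster, 8 of 10 did not pass, 1 was higher and 1 was lower. Of all entries with a p, 29.4% passed, and 10 genes are too few to tell from this share. The authors' deposited table gave -1.11 ± 0.39 for the rare CG10041 and 0.47 ± 0.072 for the cytochrome P450 gene Cyp9f3, both named after their values were seen.

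**Figure D3:**
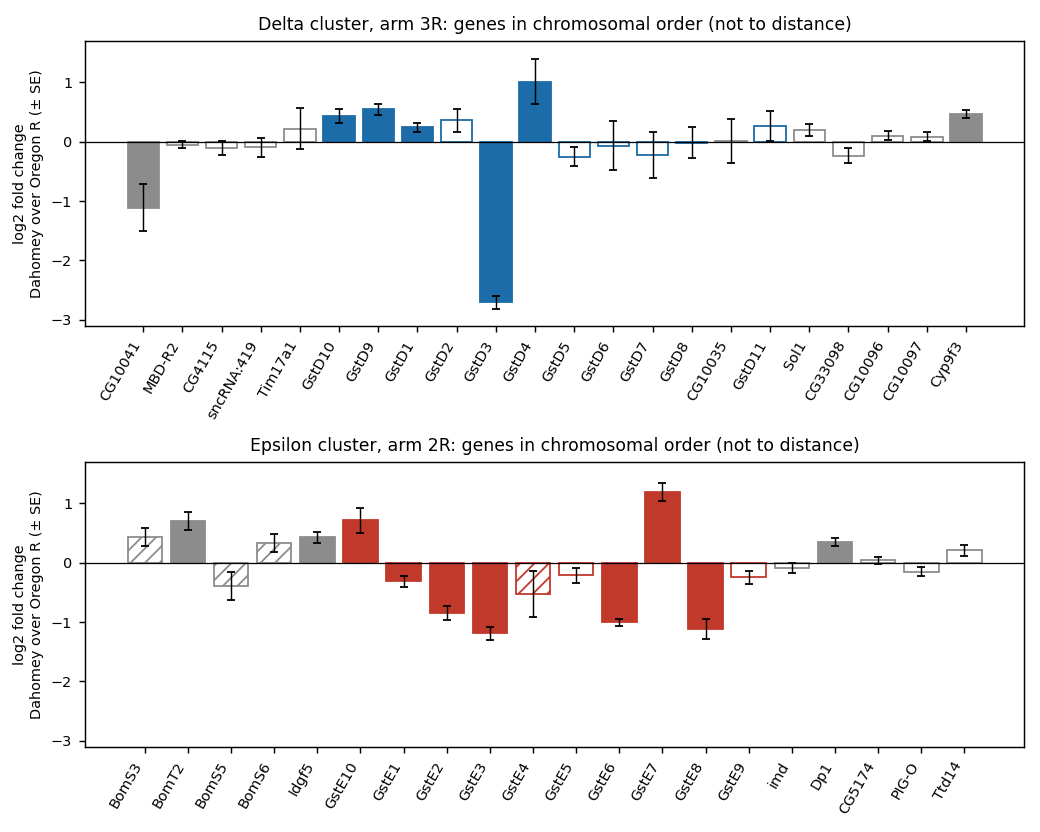
Log2 fold change of Dahomey over Oregon R (bars) with the authors' SE (error bars) for the genes of the delta cluster (top) and the epsilon cluster (bottom) and the 5 genes on each side that have a value, in chromosomal order and not to distance; coloured bars are glutathione transferases, grey bars other genes, filled bars passed an adjusted p under 0.05, open bars did not and hatched bars had no p. GstD3 at -2.70 stands between GstD2 at 0.36 and GstD4 at 1.01, and GstE7 at 1.19 stands between GstE6 at -1.003 and GstE8 at -1.12.

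Most epsilon genes that passed were lower in Dahomey. Of 13 epsilon genes with a p, 8 were lower, 2 were higher and 3 did not pass, and the median log2 fold change of the 13 was -0.31. That is 76.9% that passed, against 29.4% of all entries with a p, of which 14.7% were lower. All epsilon genes had a mean of at least 100, and of entries with such a mean 36.8% passed and 18.6% were lower. GstE3 had the largest decrease, with a log2 fold change of -1.19 ± 0.10 (adjusted p = 2.13e-28) in the authors' deposited table and levels of 1556 normalized counts in Dahomey and 3557 in Oregon R. GstE8 had -1.12 ± 0.17 (adjusted p = 2.51e-10) and GstE2 had -0.85 ± 0.11 (adjusted p = 3.05e-12) in the authors' deposited table. The most precisely measured was GstE6 (FBgn0063494): its log2 fold change was -1.003 ± 0.058 (adjusted p = 6.10e-65) in the authors' deposited table, with 2623 normalized counts in Dahomey and 5259 in Oregon R. GstE1, with a log2 fold change of -0.31 ± 0.092 in the authors' deposited table, changed least of the cluster's genes that passed.

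GstE7 and GstE10 went the other way. GstE7 (FBgn0063493) had a log2 fold change of 1.19 ± 0.15 (adjusted p = 3.04e-14) in the authors' deposited table, with 938 normalized counts in Dahomey and 410 in Oregon R. Its size was close to that of GstE3 in the other direction, 2.29-fold for GstE7 and 2.29-fold for GstE3. GstE10 had 0.71 ± 0.21 (adjusted p = 0.00391) in the authors' deposited table, from a mean of 231 normalized counts.

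Along arm 2R, 10 epsilon genes form a single cluster from GstE10 to GstE9. GstE10 lies at its edge on the minus strand, with the other 9 on the plus strand, and in the current annotation its exons share 20 bases with those of GstE1, which are read from the opposite strand. GstE1, GstE2 and GstE3 were lower in Dahomey one after the other. GstE4 had no p, and GstE5 had -0.21 ± 0.12 (adjusted p = 0.208) in the authors' deposited table. Then come GstE6 (lower), GstE7 (higher) and GstE8 (lower) in direct succession. GstE9, the most abundant gene of the cluster at 8771 normalized counts per kb, had -0.25 ± 0.11 (adjusted p = 0.0696) in the authors' deposited table, and its exons share 40 bases with the immune gene imd. Among the 5 genes on each side, 7 had a p, of which 3 were higher in Dahomey and 4 did not pass, against 14.7% higher in the whole table. Those 3, named after their values were seen, were the immune peptide gene BomT2 at 0.70, the growth factor gene Idgf5 at 0.43 and Dp1 at 0.34, all log2 fold changes from the authors' deposited table. The sources used here do not give the counting program or how it treated strand and reads shared by similar copies, so the split of reads between duplicated delta or epsilon genes is uncertain.

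Outside the cluster, 4 epsilon genes stand alone on arm 2R. GstE12, the second most abundant member of the family, did not pass: the authors' deposited table gave a log2 fold change of 0.04 ± 0.086 (adjusted p = 0.789), and its 95% interval ran from -0.13 to 0.21. GstE14, also called noppera-bo and required for ecdysteroid synthesis in larvae, had a log2 fold change of -0.47 ± 0.12 (adjusted p = 0.00105) in the authors' deposited table, with 1006 normalized counts in Dahomey and 1391 in Oregon R. GstE11 had -0.75 ± 0.12 (adjusted p = 1.08e-08) there. GstE13 had -0.24 ± 0.090 (adjusted p = 0.0266) in the authors' deposited table and did not pass at an adjusted p under 0.01. Of these 4 genes, 3 were thus lower in Dahomey, as were 5 of the 9 tested genes in the cluster.

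GstS1 (FBgn0010226), the only sigma gene of the fly, encodes an abundant enzyme of flight muscle that conjugates products of lipid peroxidation. It was lower in Dahomey, with 14172 normalized counts there and 20435 in Oregon R, from a log2 fold change of -0.53 ± 0.097 (adjusted p = 5.29e-07) in the authors' deposited table. Flight muscle markers did not move as 1 group. According to the authors' deposited table, the flight-muscle genes fln and TpnC4 had log2 fold changes of -0.50 ± 0.083 and -0.77 ± 0.10, Mhc had 0.16 ± 0.061, and Act88F had 1.25 ± 0.16 with no p. The means of the 4 markers ran from 14362 to 252776, and their part in the GstS1 result was not tested.

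The zeta genes, whose class isomerises an intermediate of tyrosine breakdown, lie next to each other on arm 3R and differed in outcome. GstZ2 (FBgn0037697) had a log2 fold change of -1.01 ± 0.14 (adjusted p = 1.97e-11) in the authors' deposited table, with 2363 normalized counts in Dahomey and 4742 in Oregon R. GstZ1 had -0.13 ± 0.10 (adjusted p = 0.407) there, with a 95% interval from -0.33 to 0.07. The intervals of the neighbours did not overlap, since that of GstZ2 ran from -1.28 to -0.73; the difference between the genes was not tested.

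Among the theta genes, 1 of 3 with a p differed, or 33.3%, close to the 29.4% of all entries with a p. All theta genes had a mean of at least 100, and of entries with such a mean 36.8% passed. GstT2 had a log2 fold change of 0.28 ± 0.10 (adjusted p = 0.0244) in the authors' deposited table, and did not pass at an adjusted p under 0.01; 25.1% of its exon bases are shared with the gene CG12926 on the opposite strand, whose log2 fold change was -0.07 ± 0.071. Its neighbour GstT1 had 0.09 ± 0.080, and GstT3, on the X chromosome, had -0.10 ± 0.12, in the authors' deposited table.

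GstT4 and GstE4 had a fold change and no p. For GstT4 (FBgn0030484), on the X chromosome, the authors' deposited table held a mean of 26242 normalized counts and a log2 fold change of -0.76 ± 0.18, which gives 19493 normalized counts in Dahomey and 32991 in Oregon R. The authors' deposited table gave GstE4 a mean of 1021 and a log2 fold change of -0.53 ± 0.39. The SE of GstT4 was 2.33 times, and that of GstE4 3.64 times, the median SE of the 500 entries with the nearest means, and 1.4% and 5.0% of those entries had a larger SE. Both genes thus had larger errors than most entries of their abundance. Of all entries with a mean of at least 1000, 5.88% lacked a p, for reasons that the sources used here do not state. With a p computed from its fold change and SE and adjusted over all such entries, GstT4 would pass and GstE4 would not. The authors' comparison gave GstT4 no p, so it is not counted here as differing. Without values of single libraries, whether a single library set these large errors cannot be seen.

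**Figure D4:**
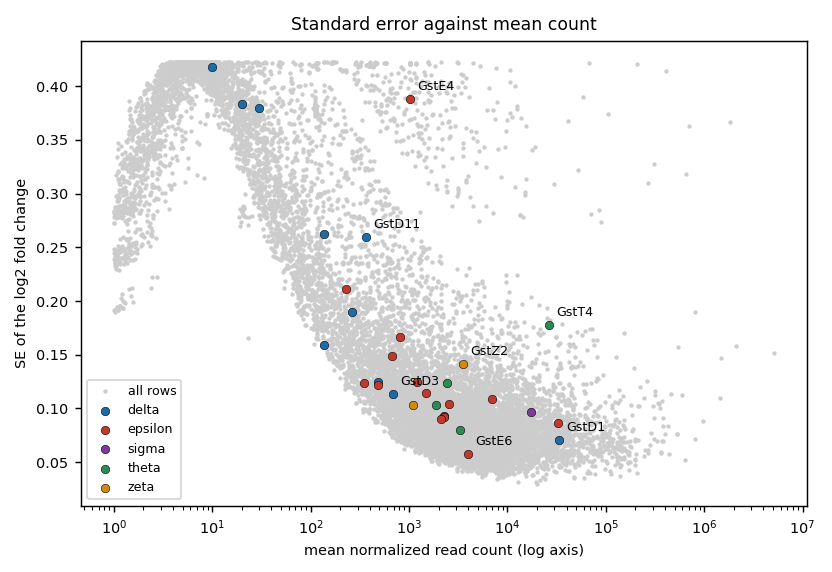
SE of the log2 fold change against the mean normalized read count (log axis) for all entries with a mean of at least 1 (grey) and for the 32 genes (coloured by class). GstT4 at 0.18 and GstE4 at 0.39 lie above most entries of their mean, whereas GstD3 at 0.11 and GstE6 at 0.058 lie within the main band.

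Summed over the family, the level was 127829 normalized counts per kb in Dahomey and 145405 in Oregon R, a log2 ratio of -0.19, given without a test. Without GstT4 and GstE4, the sums were 110854 in Dahomey and 116926 in Oregon R, a log2 ratio of -0.08, so GstT4 and GstE4 together made up most of the gap. The delta class held 37.9% of the sum in Dahomey and 28.8% in Oregon R, shares given without a test, and GstD1 alone held 33.6% in Dahomey and 25.0% in Oregon R. The other 10 delta genes together stood at 5491 normalized counts per kb in Dahomey and 5478 in Oregon R, so the higher share of the class came from GstD1 and from the lower total in Dahomey. The 10 genes of the epsilon cluster held 16.1% in Dahomey and 20.7% in Oregon R. The theta class held 18.3% in Dahomey and 23.4% in Oregon R; that difference came from GstT4, which has no p, since the other 3 theta genes summed to 7476 normalized counts per kb in Dahomey and 6982 in Oregon R. The large relative change of GstD3 weighed little, at 0.194% of the sum in Dahomey and 1.11% in Oregon R.

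**Figure D5:**
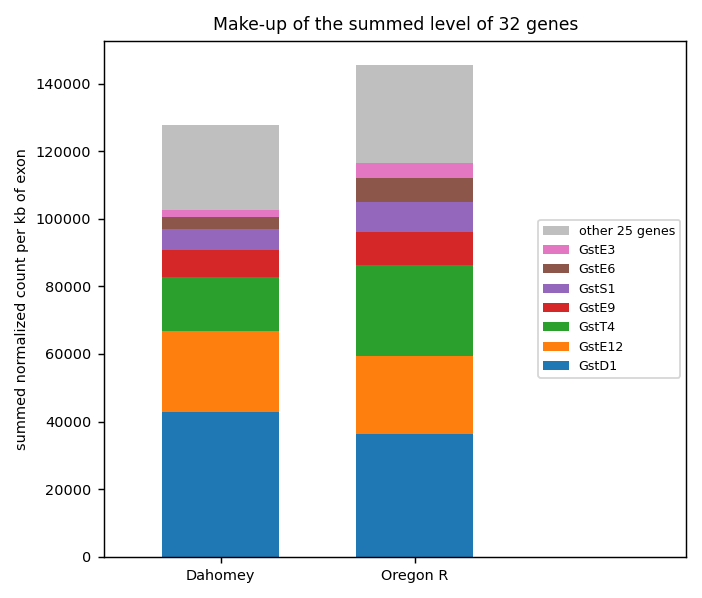
Summed level of the 32 genes in normalized counts per kb of exon, in Dahomey (left) and Oregon R (right), split into the 7 genes of highest mean level and the other 25. GstD1 is the bottom segment in both bars, and the GstT4 segment is larger in Oregon R, with 15977 normalized counts per kb in Dahomey and 27042 in Oregon R.

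Of the listed genes around the transferases in glutathione metabolism, those that passed were mostly higher in Dahomey, many of them other genes of the transferase fold. The list held 29 genes for glutathione synthesis, redox enzymes, regulators, export and other proteins of the glutathione transferase fold or function. Of these, 13 were higher in Dahomey, 2 were lower and 14 did not pass, and the median log2 fold change was 0.13. The other genes of the transferase fold or function, eEF1gamma among them, gave 6 of the 13 higher and 1 of the 2 lower genes. Over all entries with a p, 14.7% were higher and 14.7% lower. With a mean of at least 100 required, these shares were 18.2% and 18.6%. All listed genes but Trxr2 had such a mean. The highest were the omega-class genes GstO3 and GstO1, at 2.80 ± 0.071 and 1.35 ± 0.13 in the authors' deposited table. The lower genes were gfzf, a nuclear protein with a transferase domain, at -0.28 ± 0.091, and MRP, an exporter of glutathione conjugates, at -0.18 ± 0.057, in the authors' deposited table. The 3 that passed among 5 genes of glutathione synthesis and turnover were all higher, namely Gclm, a subunit of the enzyme of the first step, at 0.48 ± 0.079, and the glutathione synthase genes Gss1 and Gss2, each at 0.41 in the authors' deposited table. The values of Gss1 and Gss2 were nearly the same, as for copies counted on shared reads, so they may not be separate measurements. Both are counted among the 13 higher genes.

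None of the 6 regulators of xenobiotic response passed the authors' DESeq2 adjusted p, and 2 of them, cnc and maf-S, had an unadjusted p under 0.05. Of all entries with a p, 29.4% passed, and 36.8% of those with a mean of at least 100, which all 6 had. These 6 genes are too few to tell from those shares. The authors' deposited table gave cnc -0.12 ± 0.060 (adjusted p = 0.135), its partner maf-S -0.19 ± 0.095 (adjusted p = 0.132) and its inhibitor Keap1 0.08 ± 0.062 (adjusted p = 0.377) on the log2 scale. The nuclear receptor gene Hr96 had -0.03 ± 0.063 there. These are levels of transcript and say nothing of the activity of the proteins.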

How the data were processed

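Heads and thoraxes gave 4 Dahomey and 4 Oregon R libraries; per the labels' protocols, RNA of both strains was prepared together and libraries were made from poly(A) RNA with a TruSeq RNA v2 kit. TopHat2 2.0.7, DESeq2, FastQC, bcl2fastq and the build BDGP5 are named in the submitters' processing notes; the counting program, strand setting and annotation were not stated. Per the file headers, the authors' table holds a mean over libraries, read as a signal on the scale of normalized counts. The log2 fold changes and their SE were computed by the authors from their DESeq2 comparison, per the file headers and processing notes. Each p-value and adjusted p-value is also the authors' own, as deposited. The deposited p-value equalled the Wald p of fold over SE to within 4.05e-15.

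The table has 14944 rows, 13395 with a p-value. Depth per library is unknown; the median SE was 0.0823 at means of at least 1000. Gene IDs were matched to symbols (14366 of 14701), and each of the 32 genes stood on 1 row whose values no other ID shared. Exon lengths, strands and overlaps came from a BDGP6 annotation and gene order from RefSeq release 6, by gene ID or symbol; coordinates are left out because the authors used BDGP5. Level per strain was computed from mean and fold change, and 95% intervals as fold change ± the normal quantile times SE; the counts of 5 neighbours on each side ignore distance. Calls used the authors' adjusted p-value under 0.05. The code for p-values and adjustment was tested on simulated data. Alternatives were an adjusted p under 0.01, adjustment over 1 row per gene, a mean of at least 100, the lowest row of an ID, a p for every row, recentring, SE times 1.5 and a minimum log2 fold change of 1.

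The genes, lists and rules were chosen with earlier results of these data known. All 32 genes are named or counted; of the pathway list, the rule took the 2 highest and 2 lowest genes that passed, and others were named after their values were seen. Python 3.11.15, numpy 2.4.6, pandas 2.3.3, scipy 1.17.1 and matplotlib 3.10.9 were used.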

Additional observations from a re-analysis of the deposited data

How the results depend on the processing

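All alternatives but recentring keep the authors' fold changes, so they bear on calls and not on directions. Against counts of 7 higher and 11 lower genes, an SE multiplied by 1.5 left 2 higher and 8 lower, and GstD1, GstD4, GstD10, GstE1, GstE10, GstE13, GstE14 and GstT2 no longer passed. Requiring a log2 fold change of at least 1 in size as well left 2 higher and 5 lower; fewer genes can meet it by construction. An adjusted p under 0.01 gave 5 and 10, losing GstD4, GstE13 and GstT2. A mean of at least 100 gave 6 and 11, and a p for every row gave 7 and 12, adding GstT4. Adjustment over 1 row per gene, the row of lowest mean and recentring by -0.01 on the log2 scale left the counts at 7 and 11 and no call of a gene changed. The counts of the glutathione pathway list, 13 higher and 2 lower, were the same at an adjusted p under 0.01. Alternatives that need protein or promoter sequences were not run.

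No paired analysis was possible because the table analysed holds 1 finished comparison of the strains, and fits without a replicate were not run. Depth limits GstD4, GstD6 and GstD7, with means of 30.3, 9.99 and 20.1 normalized counts in the authors' deposited table.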

Other observations

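Around GstS1, 3 of the 6 neighbours with a p were lower in Dahomey too, at a locus chosen after its values were seen. Of the 5 genes on each side in the RefSeq order, 6 had a p, of which 3 were lower and 1 was higher. Of all entries with a p, 14.7% were lower and 14.7% higher, and 6 genes are too few to tell the locus from these shares. In the authors' deposited table these were CG6984, directly next to GstS1, at -0.80 ± 0.088, CG15611 at -0.38 ± 0.082 and the amylase gene Amy-p at -1.04 ± 0.10 on the log2 scale, and CG30460 at 0.19 ± 0.077. Near GstE11, the gluconeogenesis gene Pepck2 had -2.05 ± 0.13 in the authors' deposited table, and its paralog Pepck1, close by, had 0.46 ± 0.16 with no p. Around GstE12, 1 of 9 tested neighbours passed. None of the 6 tested around GstT1 and GstT2 passed, and none of the 7 around GstZ1 and GstZ2. Against the 29.4% of all entries with a p that passed, these counts are too small to tell any locus apart.

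The exporter gene Mrp5 had a log2 fold change of 1.10 ± 0.14 in the authors' deposited table and Mrp4 0.19 ± 0.053, so the 3 exporters of the list passed in both directions. Of the redox genes, Trxr1, a thioredoxin reductase whose system stands in for glutathione reductase in flies, had 0.25 ± 0.065 and the peroxiredoxin gene Prx4 had 0.39 ± 0.075, and the other 6 did not pass.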
